A study of Mus musculus with 5 samples.

Results

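Monocyte identity and recruitment genes were examined in sorted myeloid cells of mouse mammary tumours. The 9 genes were chosen by name for their known roles, by a rule that uses no measured value but was written with earlier results of these data known. They are Ccr2, Ly6c2, F13a1, Lyz2, Plac8, Cx3cr1, Cd14, Ace and Spn. They are 9 of the 46983 genes in the count files. EO771, a mouse mammary carcinoma line, was grown in the mammary gland of C57/BL6 mice, and RNA was sequenced from cells labelled as tumour-associated macrophages, gated as CD45+ CD11b+ Ly6G- F4/80+. In 2 libraries the tumours had been treated with diphtheria toxin, in 2 doses of 50 µg per kg, which ablates regulatory T (Treg) cells, and the cells were sorted on day 4 after ablation. The other 3 libraries came from tumours without toxin. The allele that makes Treg cells sensitive to the toxin, the animals' age and the number of animals per library are not given in the sources used here. Effects of Treg loss and of the toxin cannot be told apart, and a p-value here reflects how much these libraries varied, which may be technical variation only.

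Circulating mouse monocytes fall into a classical kind, which carries much Ly6C and the chemokine receptor CCR2, and a nonclassical kind, which carries little Ly6C and much CX3CR1 and CD43. CCR2 binds CCL2 and related chemokines, and mice without it release few classical monocytes from the bone marrow. Classical monocytes enter tumours and can become macrophages there, a step in which Ly6C and CCR2 fall while F4/80 and complement C1q genes come up.

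The files held 13122668 to 20156835 counts per library, and values below are CPM, counts scaled to the size of each library. In these libraries 3 counts correspond to between 0.1502 and 0.2263 CPM. The labelled cell type was checked against marker lists. Of 22 mature macrophage markers 18 had enough counts to be tested, at a median level of 1.41 to 2.4 CPM per kb of exon per library, and Vsig4, Cd163, Cd5l and Marco did not. The 18 fibroblast markers had a median level of 73.4 to 112 CPM per kb, and the summed level of these markers was 22640 to 25250 CPM in Treg-ablated libraries and 24650 to 28870 CPM in controls. The libraries thus held much RNA of genes that are typical of fibroblasts, and low levels of macrophage genes. The part of either in the results was not tested. In bulk RNA a smaller number of cells of a type and less RNA per cell cannot be told apart.

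All 9 genes had enough counts to be tested with edgeR's quasi-likelihood test, which adjusts p over 14580 genes and calls a change at an adjusted p under 0.05. Of the 9 genes, 6 were lower in Treg-ablated tumours (Ccr2, Cx3cr1, F13a1, Lyz2, Cd14 and Ace), 2 were higher (Ly6c2 and Spn) and Plac8 did not pass the test. Among all genes tested 12.3% were called lower, 13.5% higher and 25.8% in either direction. The median log2 fold change was -0.49 over the 9 genes and -0.01 over all genes tested. For 8 of the 9 genes the Treg-ablated and control libraries did not overlap, which was so for 52.6% of all genes tested.

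**Figure D1:**
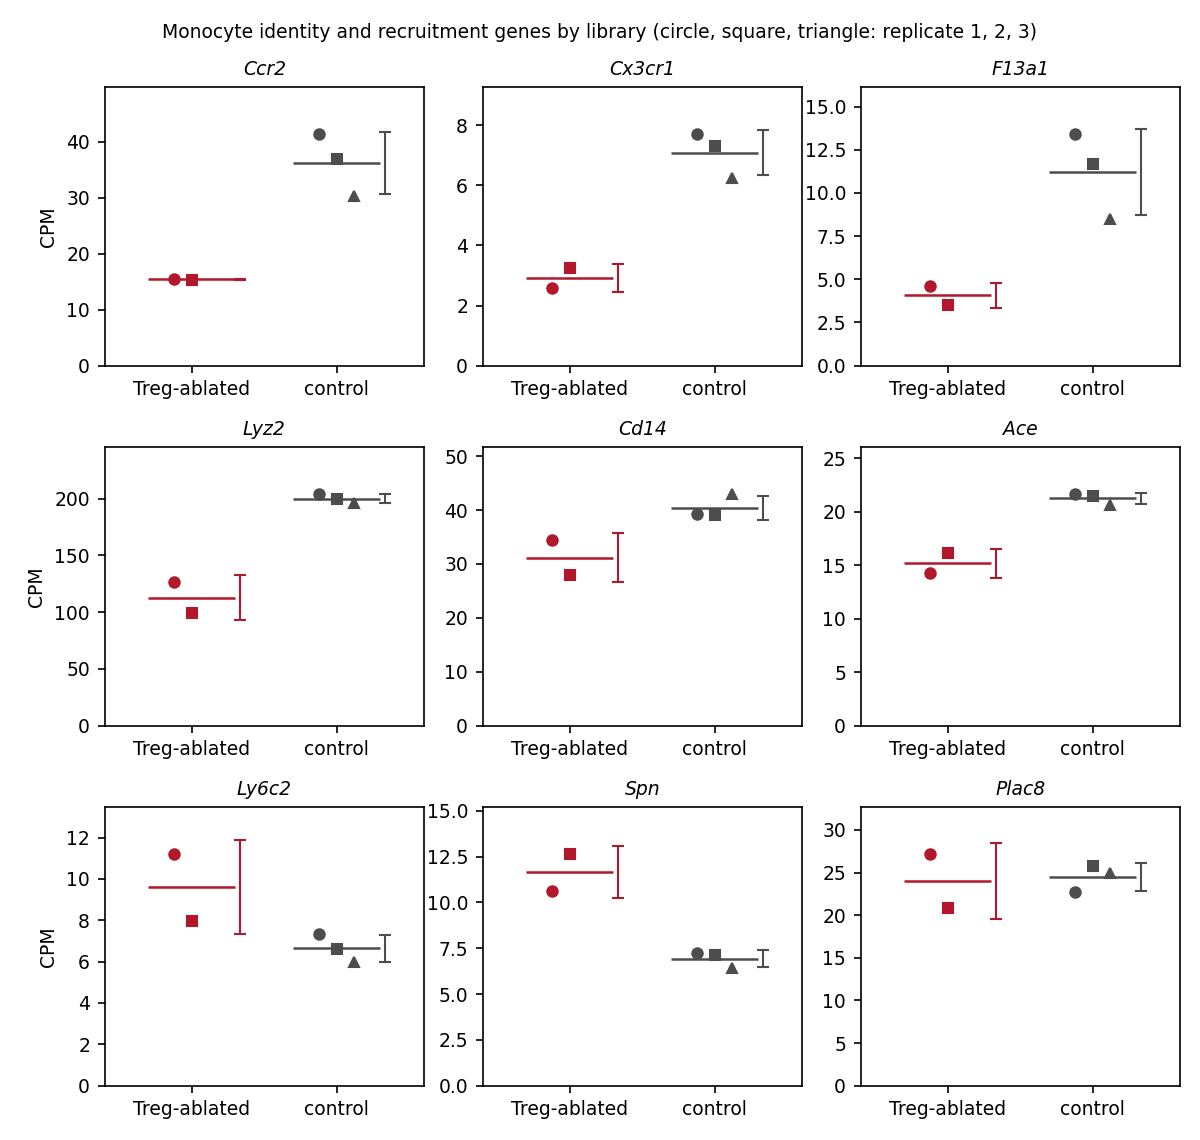
CPM of the 9 genes in each library, with a panel per gene, 2 Treg-ablated libraries on the left and 3 controls on the right. Points are libraries, horizontal lines the group means and bars ± SD. Only in the Plac8 panel do the groups overlap.

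Ccr2 encodes the CCL2 receptor (ENSMUSG00000049103, GRCm38 chr9:124101950-124113557, plus strand). It had 15.42 and 15.36 CPM in Treg-ablated libraries, against 41.4, 36.86 and 30.34 CPM in controls. Every control library was higher than either Treg-ablated library, and the controls were spread more widely than the Treg-ablated pair. The gene averaged 15.39 ± 0.0417 CPM (SD, n = 2) in Treg-ablated libraries and 36.2 ± 5.56 CPM (n = 3) in controls, and was 2.35-fold lower (log2 fold change -1.23, SE 0.13, 95% interval -1.52 to -0.95, edgeR adjusted p = 0.000313).

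Cx3cr1, the receptor for the membrane-bound chemokine fractalkine (ENSMUSG00000052336, chr9:119901616-120068283, minus strand), had 2.58 and 3.24 CPM in Treg-ablated libraries and 7.72, 7.30 and 6.26 CPM in controls. The groups were well apart although the counts were small, with 41 and 43 counts in Treg-ablated libraries and 90 to 146 in controls. It was 2.46-fold lower (log2 fold change -1.30, SE 0.18, edgeR adjusted p = 0.00115). Both receptors of the set, which mark different monocyte kinds, were therefore lower.

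F13a1 encodes the catalytic subunit of the fibrin-crosslinking coagulation factor XIII and is abundant in classical monocytes and in some tissue macrophages (ENSMUSG00000039109, chr13:36867178-37050244, minus strand). Its level was 4.60 and 3.54 CPM in Treg-ablated libraries, against 13.42, 11.7 and 8.49 CPM in controls. The lowest control was well above the highest Treg-ablated library. The drop was 2.74-fold (log2 fold change -1.45, SE 0.211, edgeR adjusted p = 0.00139), by point estimate the largest change among the 9 genes, with a 95% interval of -1.92 to -0.99 that overlaps those of Ccr2 and Cx3cr1.

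Lyz2, lysozyme M of monocytes, macrophages and granulocytes (ENSMUSG00000069516, chr10:117277334-117282274, minus strand), had 127 and 98.89 CPM in Treg-ablated libraries, against 204.3, 199.5 and 196.4 CPM in controls. The controls lay close together and the Treg-ablated pair lay apart from each other, below all controls. It averaged 112.9 ± 19.9 CPM (SD, n = 2) in Treg-ablated libraries and 200.1 ± 4.00 CPM (n = 3) in controls, 1.77-fold lower (log2 fold change -0.82, SE 0.096, edgeR adjusted p = 5e-04). The 95% interval, -1.03 to -0.61, lies closer to 0 than the estimates for Ccr2, Cx3cr1 and F13a1, and a difference between the genes' changes was not tested. Lyz1, the near-identical copy used by the gut's Paneth cells, was at most 0.3001 CPM in any library. With the counts of both genes summed, an alternative added after seeing the data, the log2 fold change was also -0.82 (edgeR adjusted p = 0.000507).

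Cd14 and Ace changed less. Cd14, the receptor that hands bacterial lipopolysaccharide to TLR4 (ENSMUSG00000051439, chromosome 18), had 34.44 and 27.94 CPM in Treg-ablated libraries, against 39.18, 39.16 and 43 CPM in controls. All controls were above both Treg-ablated libraries, by a small margin for Treg-ablated replicate 1. The change was 1.29-fold lower (log2 fold change -0.37, SE 0.099, edgeR adjusted p = 0.0212). This call ended without Treg-ablated replicate 2, where the log2 fold change was -0.23 (adjusted p = 0.147), and without control replicate 2, where it was -0.39 (adjusted p = 0.0775). It also ended with the replicate number as a block (-0.33, adjusted p = 0.0549) and with an offset on GC content (-0.27, adjusted p = 0.053).

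Ace encodes angiotensin-converting enzyme, which mouse nonclassical monocytes carry and endothelial cells too (ENSMUSG00000020681, chr11:105967945-105989964, plus strand). It had 14.23 and 16.12 CPM in Treg-ablated libraries, against 21.67, 21.46 and 20.67 CPM in controls. The controls were nearly equal and each exceeded both Treg-ablated libraries. The gene was 1.41-fold lower (log2 fold change -0.49, SE 0.1, 95% interval -0.71 to -0.27, edgeR adjusted p = 0.00642). Of its exon bases 5.58% are shared with the overlapping gene Gm11651, so a part of its counts may belong to either. Of 9 endothelial markers tested 1 was lower (Eng; 0 without control replicate 2, with the replicate block and with the GC offset) and none was higher, with a summed level of 108.3 to 112 CPM in Treg-ablated libraries and 130.7 to 132.1 CPM in controls. The CD45+ gate would remove endothelial cells, and the part of their RNA in the Ace result was not tested.

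Ly6c2 and Spn went the other way. Ly6c2 encodes a form of the Ly6C antigen, which marks classical monocytes and also memory CD8 T cells and plasma cells (ENSMUSG00000022584, chr15:75108158-75111970, minus strand). It had 11.21 and 7.98 CPM in Treg-ablated libraries, against 7.31, 6.60 and 5.98 CPM in controls. The groups did not overlap, but Treg-ablated replicate 2 was close to control replicate 1. The level was 1.46-fold higher (log2 fold change 0.54, SE 0.163, 95% interval 0.18 to 0.9, edgeR adjusted p = 0.0332). This call ended in DESeq2 (0.53, adjusted p = 0.064), with the replicate block (0.45, adjusted p = 0.0791), and when Treg-ablated replicate 1 (0.27, adjusted p = 0.316), control replicate 2 (0.54, adjusted p = 0.122) or control replicate 3 (0.48, adjusted p = 0.0719) was left out.

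Ly6c2 has a neighbour, Ly6c1, that encodes another form of Ly6C and is also made by endothelial cells. Their coding sequences, 393 bases each, are 97.7% identical with 9 mismatches. The first 60 coding bases of each, from the GENCODE M21 transcripts, are shown because reads must be split between the genes by such few differences, and capitals mark the 5 bases of this stretch that differ.
Ly6c2: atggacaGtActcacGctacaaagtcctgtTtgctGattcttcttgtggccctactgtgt
Ly6c1: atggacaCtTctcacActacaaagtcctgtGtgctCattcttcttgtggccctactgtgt

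In the coding transcript of Ly6c2, 9.17% of stretches as long as a read (125 bases) are also found word for word in Ly6c1, and 32.6% of stretches of 50 bases are. Over all transcripts of the gene, 2.74% of the stretches of 125 bases are found in Ly6c1. Ly6c1 was far more abundant, with 96.57 and 75.02 CPM in Treg-ablated libraries and 83, 88.68 and 94.21 CPM in controls. Its groups overlapped and it did not pass the test (log2 fold change -0.04, SE 0.102, edgeR adjusted p = 0.786). With the counts of both genes summed, an alternative added after seeing the data, the level was 107.8 and 83 CPM in Treg-ablated libraries and 90.31, 95.28 and 100.2 CPM in controls (log2 fold change 0.01, SE 0.102, edgeR adjusted p = 0.976). Since most of this sum is Ly6c1, it says little about Ly6c2 itself. The ratio of Ly6c2 to Ly6c1 counts was 0.116 and 0.106 in Treg-ablated libraries, against 0.0881, 0.0745 and 0.0635 in controls. The ratio was higher in both Treg-ablated libraries than in any control. How the counting split shared reads was not tested, so the Ly6c2 value is uncertain to that extent.

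Spn encodes CD43, a heavily glycosylated surface mucin that is high on nonclassical monocytes and is also carried by T cells, NK cells, neutrophils and plasma cells (ENSMUSG00000051457, chr7:127132232-127137823, minus strand). It had 10.64 and 12.65 CPM in Treg-ablated libraries, against 7.25, 7.15 and 6.40 CPM in controls. Both Treg-ablated libraries exceeded every control by more than the controls differed among themselves. Spn was 1.67-fold higher (log2 fold change 0.74, SE 0.13, 95% interval 0.45 to 1.03, edgeR adjusted p = 0.00323).

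Plac8, a small cysteine-rich protein that classical monocytes express strongly and that lymphocytes also express (ENSMUSG00000029322, chr5:100553725-100572245, minus strand), had 27.2 and 20.86 CPM in Treg-ablated libraries, against 22.68, 25.81 and 24.91 CPM in controls. The Treg-ablated pair lay on either side of the controls. The log2 fold change was -0.02 (SE 0.118, edgeR adjusted p = 0.912), and its 95% interval of -0.28 to 0.24 leaves room for small changes in either direction.

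**Figure D2:**
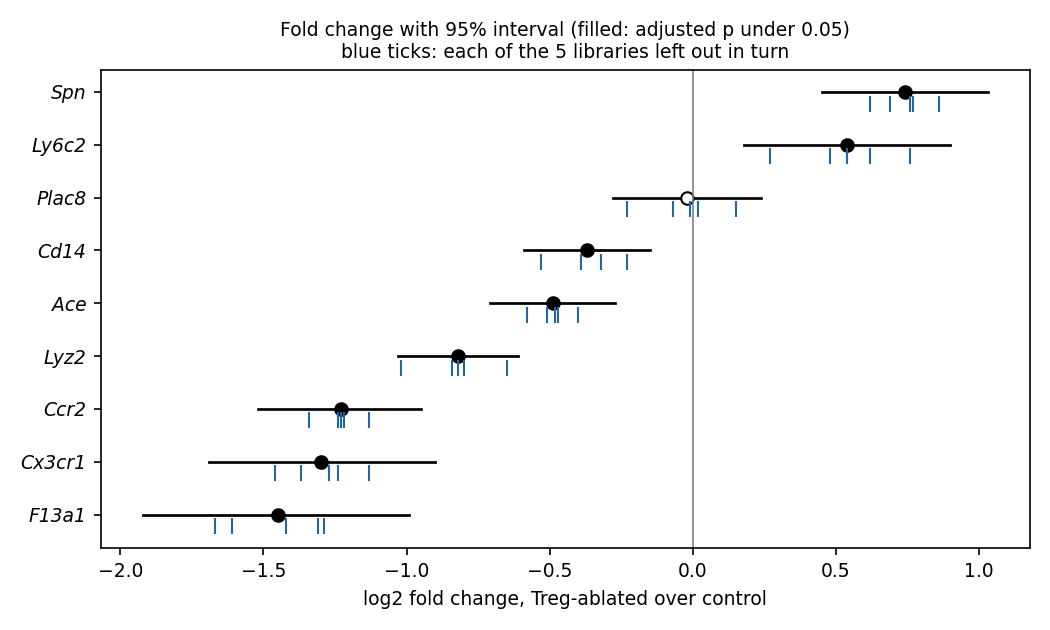
Log2 fold change (x axis, Treg-ablated over control) of the 9 genes with its 95% interval, filled where the edgeR adjusted p was under 0.05. Blue ticks give the value with each of the 5 libraries left out. Ccr2, Cx3cr1, F13a1, Lyz2, Cd14 and Ace stay below 0 and Spn and Ly6c2 above it in every such fit, while the ticks of Plac8 lie on both sides.

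Markers of lymphocytes moved with the 2 higher genes. Of 18 T cell markers 16 were higher in Treg-ablated tumours and 0 lower, with a median log2 fold change of 1.6 and a summed level of 98.77 to 104 CPM in Treg-ablated libraries, against 38.92 to 48.92 CPM in controls. Among the 13 markers of cytotoxic T and NK cells, 11 were higher and 0 lower, with a summed level of 88.01 to 89.25 CPM in Treg-ablated libraries, against 30.93 to 33.96 CPM in controls. Of 9 B and plasma cell markers tested 7 were higher and 0 lower, with a summed level of 68.12 to 84.66 CPM in Treg-ablated libraries, against 20.51 to 24.42 CPM in controls. No marker of these lists was at 0 in all libraries, and DESeq2 called 4 of the B and plasma cell markers higher. Of 4 neutrophil markers tested 2 were higher (Mmp9 and Retnlg), with a summed level of 34.34 to 37.33 CPM in Treg-ablated libraries, against 22.61 to 30.36 CPM in controls, and this count was 0 to 2 with each library left out. The neutrophil list held 12 genes, and Ly6g, Cxcr2, S100a9, Ltf, Camp, Ngp, Elane and Mpo had too few counts to be tested. Csf3r leaned the other way (log2 fold change -0.48) without passing the test, and S100a8 did not pass either. The gate would remove T cells, NK cells, B cells and neutrophils, and the part of their RNA in the Ly6c2, Spn and Plac8 values was not tested.

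Markers of mature macrophages moved with the lower genes. Of the 18 tested 13 were lower and 0 higher, with a median log2 fold change of -0.96 and a summed level of 231.7 to 246.1 CPM in Treg-ablated libraries, against 399.1 to 414.9 CPM in controls. Not all of the 8 leukocyte and myeloid genes examined encode antigens of the gate. Of these 8 genes 3 were lower (Adgre1, Tyrobp and Laptm5) and 1 was higher (Cd53). Without control replicate 2 these counts were 2 and 0, and without control replicate 1 they were 3 and 2. The summed level of the 8 genes was 183.9 to 197.6 CPM in Treg-ablated libraries and 209.4 to 224.1 CPM in controls. Of 18 fibroblast markers 9 were lower and 1 was higher (Dcn), with a median of -0.33. Of 8 dendritic cell markers tested 1 was lower (Cd209a) and 1 higher (Ccr7), counts that ran from 0 to 1 and from 1 to 2 with each library left out, with a summed level of 461.8 to 477.8 CPM in Treg-ablated libraries and 480.5 to 523.7 CPM in controls. None of 5 epithelial markers tested was called, at a summed level of 260 to 302.9 CPM in Treg-ablated libraries and 293.2 to 318.2 CPM in controls, and Esrp1 was at 0. The loss of Ccr2, Cx3cr1, F13a1 and Lyz2 RNA thus came with a loss of macrophage RNA, and their separate parts were not tested.

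Ratios of counts within a library do not depend on the library's scaling. The denominators Csf1r, Itgb2, Itgam, Ccr2, Cd8a and Ptprc were chosen after their values were seen. The ratios are therefore descriptions, with 95% intervals for counting error only. A ratio restates the changes of both its genes and is no separate support for them. Csf1r, whose product receives the CSF-1 signal that macrophages need, had 22.29 and 20.49 CPM in Treg-ablated libraries, against 52.47, 50.12 and 44.12 CPM in controls. The ratio of Ccr2 to Csf1r counts was 0.692 (0.586 to 0.817) and 0.75 (0.622 to 0.903) in Treg-ablated libraries, against 0.789, 0.736 and 0.688 in controls. Both Treg-ablated ratios lie within the range of the controls. Of 10810 genes compared, Csf1r had the pattern most like that of Ccr2, so this overlap follows from the choice of denominator. Against the integrin genes Itgb2 and Itgam, also chosen after their values were seen, the groups stood apart. The ratio of Ccr2 to Itgb2 was 0.276 and 0.28 in Treg-ablated libraries, against 0.662, 0.591 and 0.49 in controls. The ratio of Ccr2 to Itgam was 0.961 and 1.26 in Treg-ablated libraries, against 2.18, 2.17 and 1.77 in controls. For Cx3cr1 the ratio to Csf1r was 0.116 and 0.158 in Treg-ablated libraries, against 0.147, 0.146 and 0.142 in controls. The Cx3cr1 ratios of the groups also overlap within counting error.

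F13a1 had a ratio to Csf1r of 0.206 and 0.173 in Treg-ablated libraries and of 0.256, 0.234 and 0.192 in controls, again with overlap. Lyz2 had ratios to Csf1r of 5.7 and 4.83 in Treg-ablated libraries, against 3.89, 3.98 and 4.45 in controls. Both Lyz2 ratios of the Treg-ablated libraries are above those of the controls, but the counting interval of Treg-ablated replicate 2 (4.23 to 5.52) overlaps that of control replicate 3 (4.08 to 4.86), and the difference was not tested. The 2 higher genes shifted most against Ccr2. The ratio of Ly6c2 to Ccr2 was 0.727 (0.596 to 0.885) and 0.52 (0.407 to 0.66) in Treg-ablated libraries, against 0.177, 0.179 and 0.197 in controls, and all Treg-ablated intervals lie above the highest control interval, which ends at 0.249. For Spn the ratio to Ccr2 was 0.69 and 0.824 in Treg-ablated libraries and 0.175, 0.194 and 0.211 in controls. Plac8, which did not pass the test in CPM, had a ratio to Ccr2 of 1.76 and 1.36 in Treg-ablated libraries and of 0.548, 0.7 and 0.821 in controls. Cd14 and Ace, both called lower in CPM, also had higher ratios to Ccr2 in the Treg-ablated libraries. For Cd14 these were 2.23 and 1.82, against 0.947, 1.06 and 1.42 in controls. For Ace they were 0.922 and 1.05, against 0.524, 0.582 and 0.681 in controls.

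Against the T cell gene Cd8a, the order of the groups turned round. Cd8a had 8.81 and 9.42 CPM in Treg-ablated libraries, against 2.55, 2.35 and 2.64 CPM in controls (log2 fold change 1.86, edgeR adjusted p = 6.79e-05). The ratio of Spn to Cd8a counts was 1.21 and 1.34 in Treg-ablated libraries, against 2.84, 3.04 and 2.42 in controls. For Ly6c2 it was 1.27 and 0.848 in Treg-ablated libraries, against 2.87, 2.81 and 2.26 in controls. Both ratios to Cd8a were lower in each Treg-ablated library than in any control. Against the general leukocyte gene Ptprc the genes parted. The ratio of Spn to Ptprc was 0.381 and 0.384 in Treg-ablated libraries, against 0.261, 0.306 and 0.29 in controls, without overlap. The ratio of Ly6c2 to Ptprc was 0.401 and 0.243 in Treg-ablated libraries, against 0.263, 0.282 and 0.271 in controls, so that the Treg-ablated pair lay on either side of the controls.

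**Figure D3:**
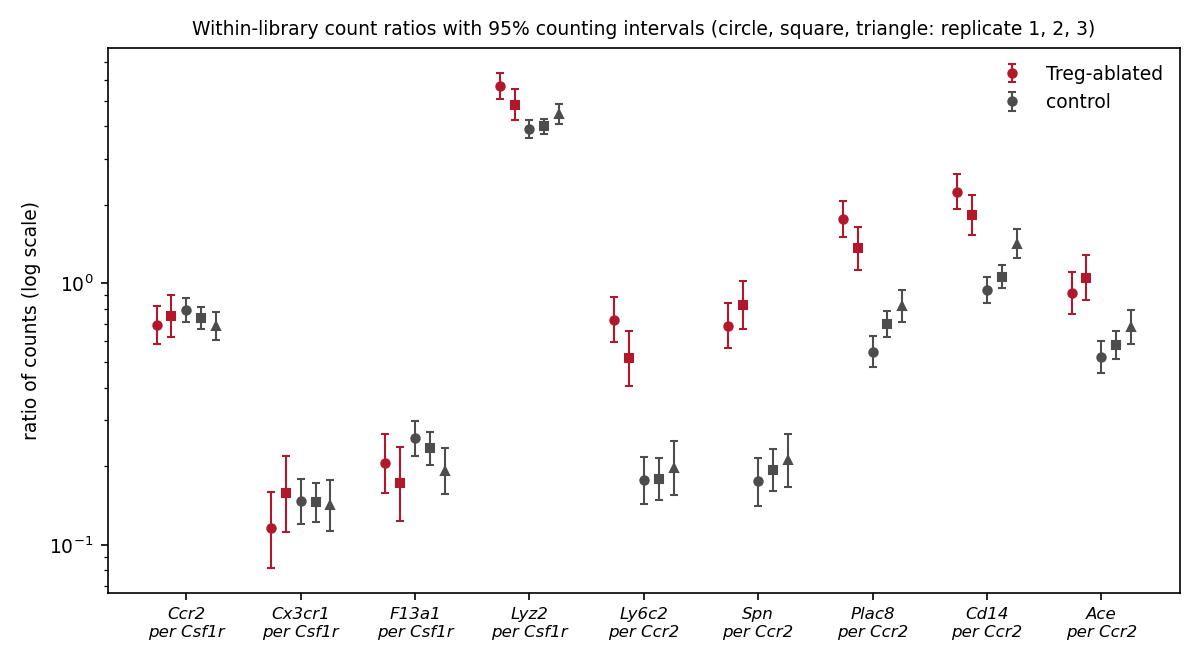
Ratios of counts within each library (log scale), with 95% counting intervals, for 2 Treg-ablated libraries in red and 3 controls in grey. Ratios of Ccr2, Cx3cr1 and F13a1 to Csf1r overlap between groups. Ratios of Ly6c2, Spn, Plac8, Cd14 and Ace to Ccr2 are higher in both Treg-ablated libraries than in any control.

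Levels of different genes are compared per kb of exon. In Treg-ablated libraries the order of mean levels was Lyz2 with 89.2 ± 15.7 CPM per kb (SD, n = 2), Cd14 with 19.8 ± 2.92 and Plac8 with 15.1 ± 2.81, each above the next in both libraries. Then came Ly6c2 with 3.50 ± 0.832, Ace with 2.87 ± 0.253, Spn with 2.49 ± 0.304 and Ccr2 with 2.41 ± 0.00653 CPM per kb, and neighbours among these 4 overlapped. F13a1 with 1.04 ± 0.190 and Cx3cr1 with 0.778 ± 0.124 CPM per kb stood last. In controls the order was Lyz2 with 158 ± 3.16 CPM per kb (SD, n = 3), Cd14 with 25.7 ± 1.41, Plac8 with 15.4 ± 1.01, Ccr2 with 5.66 ± 0.870 and Ace with 4.02 ± 0.100. Then came F13a1 with 2.85 ± 0.637 and Ly6c2 with 2.42 ± 0.243, which overlapped, followed by Cx3cr1 with 1.90 ± 0.200 and Spn with 1.48 ± 0.0989 CPM per kb. Spn was thus the lowest of the 9 genes in controls and above Ccr2 in the order of means in Treg-ablated libraries, though those 2 overlapped there. The exon length of Ly6c2 includes a transcript that keeps an intron, which lowers its value per kb.

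The genes with the most similar pattern were found by the smallest root mean square difference of centred log2 CPM over the 5 libraries, among 10810 genes with a mean of at least 5 CPM. For Ccr2 these were Csf1r (difference 0.0737), Cx3cr1 (0.113), the complement gene C1qa (0.139), Cd93 (0.146) and Hgf (0.155). For F13a1 they were Ccr2 (0.167), Cd93 (0.183), Csf1r (0.19), the Fc receptor gene Fcgr1 (0.209) and the apolipoprotein gene Apoe (0.223). The closest to Ly6c2 were Ccdc191 (0.0245), Gm6851 (0.0738), Mob3c (0.0823), Csf2ra (0.0831) and Gm42517 (0.0834). The first of these sets overlaps with the second in Csf1r and Cd93, and neither shares a gene with the third.

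Ccr2, F13a1 and Lyz2 were lower together, and Ly6c2, whose call was lost under several alternatives, had an estimate on the other side. The start of each gene was searched for letters that myeloid factors are known to bind. RefSeq start windows of GRCm38.p6 (250 bases before and 50 after the start) were found for 8 of the 9 genes, all but Cd14. Motifs searched on both strands were GAGGAAGT for PU.1, GAAA followed after any 2 bases by another GAAA for interferon regulatory factors and TTCNNNGAA for STAT factors, which 3.2%, 3.44% and 8.3% of all 32841 windows hold. The windows shown are those of these 4 genes, read 5′ to 3′ along the gene's strand, with PU.1 matches in capitals. Ly6c2 and F13a1 each have another window, not shown, which holds the same pair of matches for Ly6c2 and none for F13a1.
Ccr2, chr9:124101933-124102232, plus strand: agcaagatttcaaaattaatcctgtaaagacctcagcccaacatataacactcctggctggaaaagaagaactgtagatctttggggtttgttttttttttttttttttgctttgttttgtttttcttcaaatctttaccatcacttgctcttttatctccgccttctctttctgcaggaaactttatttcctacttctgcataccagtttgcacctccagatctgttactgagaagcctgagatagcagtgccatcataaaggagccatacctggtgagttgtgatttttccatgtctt
F13a1, chr13:37049164-37049463, minus strand: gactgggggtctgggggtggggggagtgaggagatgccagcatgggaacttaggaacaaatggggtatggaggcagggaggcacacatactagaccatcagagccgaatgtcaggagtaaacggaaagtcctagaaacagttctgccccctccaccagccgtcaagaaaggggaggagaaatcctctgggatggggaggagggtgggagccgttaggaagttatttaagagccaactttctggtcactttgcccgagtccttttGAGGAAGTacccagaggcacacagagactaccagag
Lyz2, chr10:117282223-117282522, minus strand: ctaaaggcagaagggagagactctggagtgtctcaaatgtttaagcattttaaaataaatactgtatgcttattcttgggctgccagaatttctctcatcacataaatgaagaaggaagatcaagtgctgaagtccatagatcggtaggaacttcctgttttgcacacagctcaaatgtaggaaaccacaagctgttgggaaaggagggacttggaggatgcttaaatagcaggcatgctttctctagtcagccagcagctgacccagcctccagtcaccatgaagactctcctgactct
Ly6c2, chr15:75111922-75112221, minus strand: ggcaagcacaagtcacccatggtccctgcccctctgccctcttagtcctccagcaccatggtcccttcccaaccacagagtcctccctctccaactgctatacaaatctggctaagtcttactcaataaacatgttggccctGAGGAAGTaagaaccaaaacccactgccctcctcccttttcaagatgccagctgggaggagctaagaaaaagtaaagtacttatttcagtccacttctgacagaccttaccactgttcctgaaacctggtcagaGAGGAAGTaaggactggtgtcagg

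The Ly6c2 window held 2 PU.1 matches, at bases -108 to -101 and 27 to 34 from the start, and the F13a1 window held 1, at bases 15 to 22. The windows of Ccr2 and Lyz2 held none. No window of the 8 genes held the interferon regulatory factor or STAT letters. A match is a description of these letters and does not show a bound site, and a window without one shows only that these letters are not in it. Spi1, which encodes PU.1 and was named here after its values were seen, had 9.947 and 7.004 CPM in Treg-ablated libraries, against 12.95, 12.25 and 12.8 CPM in controls (log2 fold change -0.56, SE 0.145, edgeR adjusted p = 0.0179). All Spi1 values of controls were above those of Treg-ablated libraries. The Spi1 call ended without Treg-ablated replicate 2 (-0.34, adjusted p = 0.107) and without control replicate 2 (-0.59, adjusted p = 0.0692).

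Ccr2 and Cx3cr1 were called lower, and none of the ligands examined for these 2 receptors was. Ccl2, the main CCR2 ligand, had 626.3 and 545.6 CPM in Treg-ablated libraries, against 336.8, 357 and 408.8 CPM in controls. Both Treg-ablated libraries were above all controls, and Ccl2 was higher (log2 fold change 0.67, SE 0.092, edgeR adjusted p = 0.0011) where Ccr2 was lower. The ratio of Ccl2 to Ccr2 counts, chosen after the values were seen, was 40.6 and 35.5 in Treg-ablated libraries, against 8.13, 9.69 and 13.5 in controls. Fibroblasts and tumour cells also make CCL2. The CD45+ gate would remove both, yet the libraries held much RNA of fibroblast markers. Their summed level was 22640 to 25250 CPM in Treg-ablated libraries and 24650 to 28870 CPM in controls. Which cells held the Ccl2 RNA was not tested.

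Of the other CCR2 ligands, Ccl7 had 231 and 201.2 CPM in Treg-ablated libraries, against 162.3, 171.7 and 195.1 CPM in controls (log2 fold change 0.29, SE 0.09, edgeR adjusted p = 0.0353). Ccl8 had 25.24 and 18.83 CPM in Treg-ablated libraries, against 14.76, 17.16 and 16.98 CPM in controls (log2 fold change 0.44, SE 0.131, edgeR adjusted p = 0.0321). The groups did not overlap for either, but both calls ended when a library was left out, be it Treg-ablated replicate 1 (adjusted p = 0.191 for Ccl7 and 0.31 for Ccl8), control replicate 1 (0.0913 and 0.0824) or control replicate 2 (0.141 and 0.0897), and also with the GC offset (0.314 and 0.0833). Ccl12, with 2.77 and 1.88 CPM in Treg-ablated libraries and 2.21, 2.80 and 2.51 CPM in controls, overlapped between groups (log2 fold change -0.10, edgeR adjusted p = 0.789). Cx3cl1, which encodes the CX3CR1 ligand fractalkine, had 39.41 and 39.24 CPM in Treg-ablated libraries, against 41.33, 43.86 and 42.45 CPM in controls. Its values were slightly lower in Treg-ablated libraries without passing the test (log2 fold change -0.11, SE 0.073, edgeR adjusted p = 0.275).

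**Figure D4:**
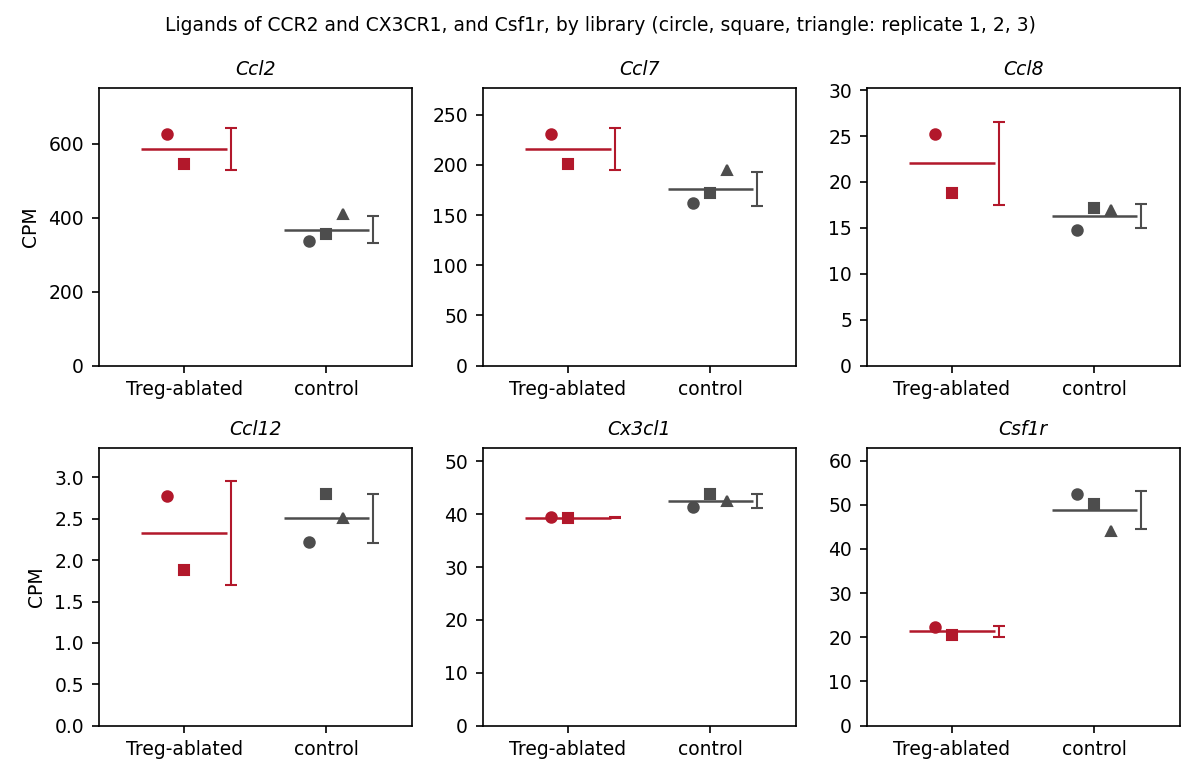
CPM of the CCR2 ligands Ccl2, Ccl7, Ccl8 and Ccl12, of the CX3CR1 ligand Cx3cl1 and of Csf1r in each library, with 2 Treg-ablated libraries on the left and 3 controls on the right of each panel. Lines are group means and bars ± SD. Ccl2 is higher and Csf1r lower in both Treg-ablated libraries than in any control.

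Other genes of monocyte recruitment were mixed. Of 13 tested 5 were higher and 1, Csf1r, was lower, with a median log2 fold change of 0.09. Beside Ccl2, Ccl7 and Ccl8 the higher genes were Ccl3, which attracts monocytes and other leukocytes (3.78 ± 0.346 CPM in Treg-ablated libraries, n = 2, and 1.87 ± 0.23 CPM in controls, n = 3; log2 fold change 1.01, edgeR adjusted p = 0.00665), and Ccl5, whose adjusted p of 0.0489 was just under the threshold. Leaving out Treg-ablated replicate 1 gave 2 higher genes, as did leaving out control replicate 1 and leaving out control replicate 2, and the GC offset gave 3. The number lower was 2 without Treg-ablated replicate 1 and with the GC offset.

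Further classical monocyte genes were mostly lower or not called. Of 20 tested 8 were lower and 1 was higher, with a median log2 fold change of -0.37, and Fcnb was at 0 in all libraries. The lower ones included Emilin2, an extracellular matrix glycoprotein (log2 fold change -0.67, SE 0.07, edgeR adjusted p = 0.000308), Thbs1, thrombospondin (-0.65, adjusted p = 0.00267), and the chitinase-like gene Chil3 (-0.91, adjusted p = 0.0111). Fibroblasts also express Thbs1 and Vcan, another of the 8. DESeq2 called 5 of them lower. Leaving out control replicate 2 left 2 lower, leaving out control replicate 1 left 5, and leaving out Treg-ablated replicate 2 left 4.

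Nonclassical monocyte genes showed little change. Of 16 tested 1 was higher, Hes1, a target of Notch signalling (log2 fold change 0.68, SE 0.105, edgeR adjusted p = 0.00194), and 0 were lower, with a median of 0.06. Itgal, an integrin chain of LFA-1 (0.39, adjusted p = 0.0503), and Clec4a3 (-0.67, adjusted p = 0.0648) missed the threshold, and each passed it under some alternatives. The number higher was 2 without control replicate 1, with library size alone and with a filter of 1 count in any library. With the GC offset it was 4. The number lower was 1 with that filter, with the replicate block, with the GC offset and without control replicate 3. Cx3cr1 and Ace on one side and Spn on the other, all used as nonclassical monocyte markers, thus went in opposite directions.

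Among 13 genes of lipopolysaccharide recognition, the pathway of CD14, 5 were lower and 1 was higher, with a median log2 fold change of -0.24. Tlr4, the signalling receptor, had 30.28 and 40.6 CPM in Treg-ablated libraries, against 52.13, 47.41 and 44.67 CPM in controls (log2 fold change -0.45, SE 0.118, edgeR adjusted p = 0.0202). Ly96, which encodes its partner MD-2, had 7.62 and 6.03 CPM in Treg-ablated libraries, against 4.23, 3.30 and 3.76 CPM in controls (0.88, SE 0.174, adjusted p = 0.00565). Neither gene's groups overlapped, and the receptor and its partner moved in opposite directions. Tlr2 (-0.54, adjusted p = 0.0176), the lipopolysaccharide binding protein gene Lbp (-1.28, adjusted p = 0.0246) and the adaptor gene Ticam1 (-0.36, adjusted p = 0.0248) were lower. When Treg-ablated replicate 1 was left out the Tlr4 call ended (adjusted p = 0.125), as it did when control replicate 1 (0.0524) or control replicate 2 (0.0834) was. The number lower in the list was 3 with the GC offset, 1 when Treg-ablated replicate 2 or control replicate 1 was left out, and 0 when control replicate 2 was.

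Of 17 factors that direct monocyte development 6 were higher and 3 were lower, with a median log2 fold change of 0.12. Which cells held their RNA was not tested. The higher ones included Klf4, needed in mice for Ly6C-high monocytes (72.74 ± 3.60 CPM in Treg-ablated libraries, n = 2, and 44.52 ± 1.42 CPM in controls, n = 3; log2 fold change 0.71, edgeR adjusted p = 0.000246), Bhlhe40 (0.44, adjusted p = 0.00165), the early growth response gene Egr1 (0.38, adjusted p = 0.00282) and Irf8, a factor of monocyte and dendritic cell progenitors (0.45, adjusted p = 0.0105). Irf8 lost its call without Treg-ablated replicate 1 (adjusted p = 0.0521). The lower ones were Csf1r (-1.19, adjusted p = 6.79e-05), Cebpa and Spi1. The number lower was 1 without Treg-ablated replicate 2 and 1 without control replicate 2.

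Of 14 coagulation and fibrin genes, the setting in which F13a1 acts, 7 were higher and 0 lower, with a median log2 fold change of 0.16. The most changed was Serpinb2, the plasminogen activator inhibitor of activated monocytes and macrophages, with 7.18 and 5.42 CPM in Treg-ablated libraries, against 1.54, 1.85 and 1.88 CPM in controls (log2 fold change 1.84, SE 0.201, edgeR adjusted p = 0.000363). Tfpi, the tissue factor pathway inhibitor (0.35, adjusted p = 0.00359), the protease receptor gene F2rl1 (0.38, adjusted p = 0.00536) and F3, tissue factor (0.36, adjusted p = 0.00568), were also higher. F13a1 thus fell while none of these other coagulation genes was called lower, although 1 was without Treg-ablated replicate 1.

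Of 6 renin-angiotensin genes tested, the pathway of ACE, 2 were lower and 0 higher, with a median of -0.35, and Ren1 and Agtr1b were at 0 in all libraries. They were the aminopeptidase gene Lnpep (-0.80, edgeR adjusted p = 0.00912), whose call ended without control replicate 2 (adjusted p = 0.0515), and the receptor gene Agtr2 (-1.53, adjusted p = 0.0109), whose call ended without Treg-ablated replicate 1 (adjusted p = 0.0778). Of 4 Ly6 family genes tested beside Ly6c2, 1 was higher, Ly6a (Sca-1; 0.40, adjusted p = 0.01), and 0 were lower, with a median of 0.22. The Ly6a call ended without Treg-ablated replicate 1 (adjusted p = 0.0664) and without control replicate 2 (0.0685). Ly6i had a log2 fold change of 0.65 (adjusted p = 0.0505).

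Of 13 genes for CD43's partners and its sugar chains, the setting of Spn, 5 were higher and 1 was lower, with a median log2 fold change of 0.11. The higher ones included C1galt1c1, the chaperone of the core O-glycan enzyme (0.40, edgeR adjusted p = 0.0102), the E-selectin gene Sele of activated endothelium (0.78, adjusted p = 0.0126) and Cd44 (0.29, adjusted p = 0.0113). Siglec1, a sialic acid receptor of macrophages, was lower (-1.21, adjusted p = 0.00925). The number higher was 3 with the replicate block and when either Treg-ablated library was left out. Leaving out control replicate 2 left 1 higher and ended the Siglec1 call (adjusted p = 0.0588).

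**Figure D5:**
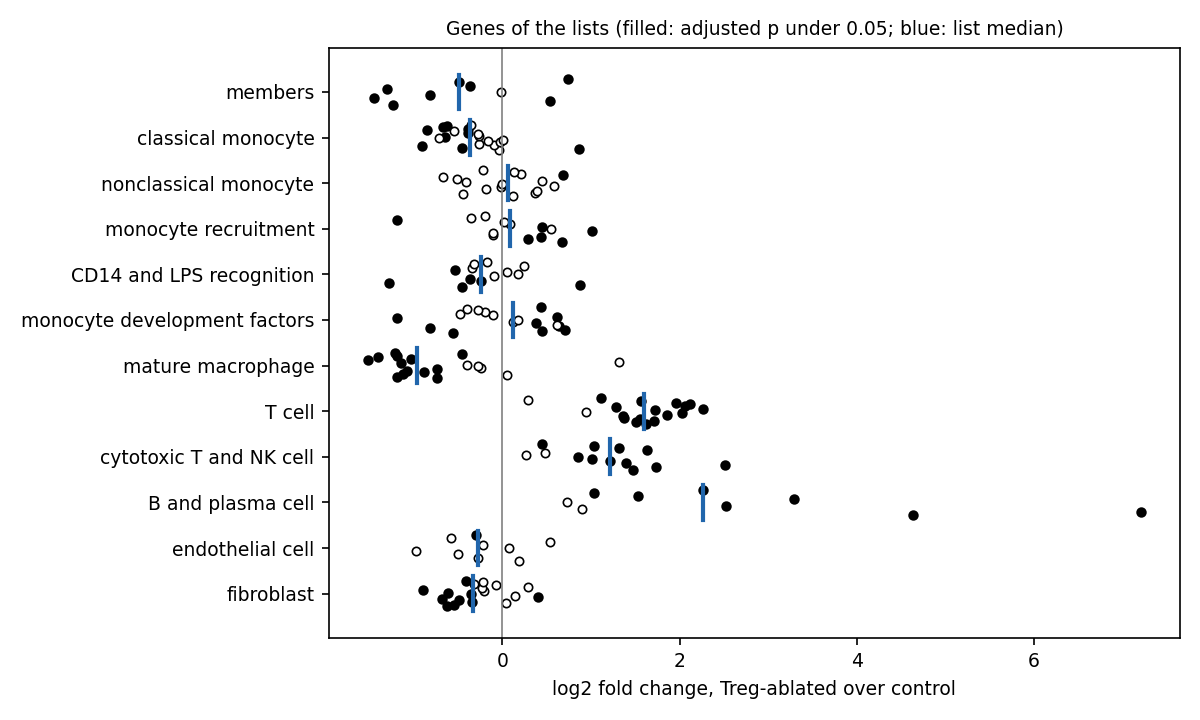
Log2 fold change (x axis, Treg-ablated over control) of every gene tested in 12 gene groups, with the 9 monocyte genes on top. Each point is a gene, filled where the edgeR adjusted p was under 0.05, and blue bars are group medians. The mature macrophage group has a median of -0.96 and the T cell group one of 1.6, and the median of the 9 genes, -0.49, lies between.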

How the data were processed

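The deposited counts come from featureCounts v1.6.2 run by the authors on a filtered Ensembl 83 annotation of GRCm38, per the file headers. They are whole-number counts of fragments per gene, not normalized. Per the submitters' processing notes, Trimmomatic 0.33, FastQC 0.11.5, DESeq2 1.16.1 and Subread 1.6.2 were also used. No strand or multi-mapping option is in the recorded command, although the labels describe a stranded kit, so overlapping genes cannot be told apart and near-identical copies are uncertain. Groups and replicate numbers follow the sample titles. The numbers in the file names differ from these for the Treg-ablated libraries.

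The Treg-ablated libraries held 15789199 and 13122668 counts and the controls 14893625, 20156835 and 14520524, in order of replicate number. Replicates differed beyond sampling noise (chi-square per degree of freedom 4.192 to 7.896), so none was treated as a duplicate. Intervals and floors cover counting error only. Symbols were joined by identifier for 46488 genes, and the 37 mitochondrial genes had 0 counts throughout.

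Genes were filtered with filterByExpr (minimum count 10), scaled with TMM and tested with edgeR 4.0.16 in R 4.3.3 (quasi-likelihood F test, Benjamini-Hochberg over 14580 genes, threshold 0.05). SEs are the log2 fold change over the square root of F. Exon lengths are those of the annotation used for the counts. Ratio intervals were derived from exact binomial (Clopper-Pearson) intervals at 95%. The members and gene lists were chosen with earlier results of these data known. Named are all members, up to 5 genes per pathway list with the smallest p, the ligands Ccl2, Ccl7, Ccl8, Ccl12 and Cx3cl1, the copies Ly6c1 and Lyz1, Tlr4, Ly96, and the 5 genes most like Ccr2, F13a1 and Ly6c2. Other genes were named after their values were seen, and some list genes are not reported here.

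Results were recomputed with DESeq2 1.42.0, with limma-voom (limma 3.58.1), with RLE or plain library-size scaling, with 2 further filters, with counts thinned to the smallest library, with a GC content offset, with a replicate block and without each library. Where a lone Treg-ablated library remained, it was taken to vary as the controls do. On simulated counts (14350 genes tested) recovery was 79.1% for the 67 genes set to a fold of 1.5, 91% at a fold of 2 and 98.5% at a fold of 4. Among the calls 14 were unchanged genes, 7.25% of all.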

Additional observations from a re-analysis of the deposited data

How the results depend on the processing

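With 2 libraries against 3, leaving out 1 library leaves little to estimate the spread from. Thinning to the smallest library ended none of the 8 calls, those of the genes with the fewest counts (Cx3cr1, F13a1, Ly6c2 and Spn) included. Of the 9 genes, 2 were called higher in the fit as reported and 1 was with DESeq2, since Ly6c2 lost its call. The number called higher was 1 to 2, and the number called lower 5 to 6 against 6, with each library left out in turn. Ccr2, Cx3cr1, F13a1, Lyz2, Ace and Spn kept their direction and their call under all alternatives run, with log2 fold changes of -1.37 to -1.13, -1.46 to -1.13, -1.67 to -1.29, -1.02 to -0.65, -0.58 to -0.38 and 0.62 to 0.86, and Plac8 passed under none (-0.23 to 0.15). Over all genes, with each library left out in turn, 812 to 1687 genes were called higher against 1971, and 554 to 1538 lower against 1787, the lowest without control replicate 2 in both. The cause was not tested.

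With the replicate number as a block, 1 of the 9 genes was called higher and 5 lower, and over all genes 1296 were higher and 1116 lower. Nothing in the labels pairs the libraries by these numbers. Same-numbered libraries had deviations from their group means that correlated at -0.226 for number 1 and -0.021 for number 2. The deviations of 2 Treg-ablated libraries mirror each other by construction, so these values cannot show whether the libraries were paired. The GC content offset kept 2392 of 3758 calls (63.7%) in the same direction, among them 5 of the 6 lower members and both higher ones. Of 615 values for 44 named genes outside the 9, 562 stayed on their side of the threshold, 38 lost and 15 gained a call, and none that was called changed sign. The median log2 fold change of all genes was -0.006 as reported, -0.01 with RLE size factors and 0.015 with library size alone.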
